A study of Rattus norvegicus with 18 samples.

Results

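The 39 genes described here encode proteins that act when a cell divides: CDK1 and its cyclins, the mitotic kinases, the spindle checkpoint, the kinetochore, the spindle motors, the cytokinesis machinery and proteins that shape chromosomes. They were chosen by name, with earlier results of these data known. Of the 39, 38 have a row among the 32623 genes of the liver RNA-sequencing tables. Ccnb2 has no row under that symbol and is not analysed here. Male Wistar rats formed 3 groups of 6, with 1 liver library per rat. Control rats ate standard chow for 12 weeks. Rats of the NASH (non-alcoholic steatohepatitis) group inhaled CCl4, a hepatotoxin, with phenobarbital in the drinking water for 6 weeks and then ate a high-fat, high-cholesterol diet (HFCD) for 4 weeks. Rats of the NASH-CH group, the study's model of NASH with cirrhosis, inhaled CCl4 with phenobarbital for 24 weeks and ate the HFCD during the last 16. These schedules are those of the study's methods, whereas the series' own description gives CCl4 together with the diet for the whole period in both models, and the difference could not be settled here. Both models share CCl4, phenobarbital and the HFCD, their schedules and durations differ, and no group received only 1 of the agents, so agent, diet and duration cannot be told apart. NASH-CH replicate 5 (rat 5 below) stood far above the other NASH-CH rats for these genes, so the comparisons are given with and without this rat, and "the other 5 NASH-CH rats" means the group without it.

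Mitosis starts when CDK1 bound to cyclin B phosphorylates the proteins that condense chromosomes and build the spindle. The spindle checkpoint then holds the anaphase-promoting complex in check until every kinetochore is attached, after which cyclin B is destroyed and the cell divides. Most of these genes are transcribed mainly in cycling cells. The DREAM complex represses them in resting cells, and B-MYB (Mybl2) and FOXM1 activate them in G2. CHR and CCAAT elements near the start site take part in the control of such genes. Hepatocytes of the adult liver are mostly quiescent and return to the cycle after injury or loss of tissue. In bulk liver RNA, fewer cycling cells and less RNA per cycling cell cannot be told apart.

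The 2 promoter elements could be looked for in the RefSeq promoters (assembly GRCr8, which is not the build of the counts) for 34 of the 39 genes (all except Aurkb, Ccna2, Racgap1, Tpx2 and Ube2c). The window ran from 250 bases before to 50 bases after the start. The CHR letters TTTGAA, searched on both strands (TTCAAA on the other), were found in 24 of the 34 promoters (70.6%), against 19.4% of 27457 rat promoters of the same length. CCAAT, searched likewise (ATTGG on the other strand), was found in 22 (64.7%, against 39.6%), and both motifs were found in 17 (50%, against 8.5%). The 2 motifs overlapped each other in 1 of the 34 promoters. The 120 bases before the start are printed for 6 genes, 5′ to 3′ on the strand of the gene, with the letters of either motif, on either strand, in capitals. Cdk1 (chr20:19265173-19265292, plus strand), Top2a (chr10:84473094-84473213, minus strand), Cdc20 (chr5:137255800-137255919, minus strand) and Prc1 (chr1:143659361-143659480, plus strand) are shown as genes with both motifs. Ccnb1 (chr2:33655226-33655345, minus strand) is shown as the gene with the largest difference between NASH and control rats, and Kif11 (chr1:244536747-244536866, plus strand) as the one with the smallest.
Cdk1: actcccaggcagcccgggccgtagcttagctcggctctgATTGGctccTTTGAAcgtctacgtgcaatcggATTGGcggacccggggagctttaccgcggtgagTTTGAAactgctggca
Top2a: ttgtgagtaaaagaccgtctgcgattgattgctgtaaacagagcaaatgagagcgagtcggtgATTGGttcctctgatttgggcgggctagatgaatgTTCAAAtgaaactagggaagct
Cdc20: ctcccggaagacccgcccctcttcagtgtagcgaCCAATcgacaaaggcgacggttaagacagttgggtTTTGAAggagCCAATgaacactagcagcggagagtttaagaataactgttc
Prc1: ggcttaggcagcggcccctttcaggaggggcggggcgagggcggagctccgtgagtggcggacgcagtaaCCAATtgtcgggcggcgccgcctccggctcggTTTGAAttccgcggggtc
Ccnb1: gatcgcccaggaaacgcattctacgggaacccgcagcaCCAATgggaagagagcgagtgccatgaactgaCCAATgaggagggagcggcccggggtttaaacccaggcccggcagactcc
Kif11: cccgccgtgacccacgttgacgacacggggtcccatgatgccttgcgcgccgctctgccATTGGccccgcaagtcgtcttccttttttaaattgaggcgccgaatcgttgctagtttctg
Cdk1 held 2 CHR matches and 2 CCAAT matches in this stretch, whereas Ccnb1 held 2 CCAAT matches and Kif11 held 1, both without a CHR match in the whole window. Both the most and the least changed gene therefore lacked the CHR letters in this window. Among the 33 matched genes with a value, the median log2 fold change of NASH against control was -2.20 for the 23 genes with a CHR match and -1.68 for the 10 without, with ranges of -3.13 to -0.36 and -4.22 to -0.25, which overlap widely. A match of letters is a description of the sequence, not evidence that a factor binds there.

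The rounded expected counts summed to 19498516 to 27174006 per control rat, 20827733 to 29491895 per NASH rat and 44680345 to 60117806 per NASH-CH rat, so that the NASH-CH libraries were 2.07 times as deep as the control libraries on average (p = 0.00216 by exact permutation, two-sided, and no smaller p is possible with 6 rats against 6). Levels are given as CPM, counts scaled to a common library size by the trimmed mean of M values (TMM), which are not corrected for gene length, so levels are compared between rats and not between genes. The mitosis genes were low in every group: 3 counts corresponded to 0.0948 to 0.187 CPM in a control or NASH rat and to 0.0390 to 0.0655 CPM in a NASH-CH rat, so levels below these values rest on a few reads. A gene was tested where enough rats exceeded 0.369 CPM, and 31 of the 38 genes passed. Of those 31, 19 had fewer than 6 NASH and NASH-CH rats over that level and so passed with the help of the control rats, for which reason the counts are also given for all 38 without this filter.

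Mitosis gene levels were lower in NASH than in control livers, and lower in 5 of the 6 NASH-CH livers as well, whereas rat 5 had the highest summed level of the 18 rats. Added over the 38 genes, the level was 28.5 to 89.6 CPM in control rats (median 46.0) and 12.5 to 18.6 CPM in NASH rats (median 14.0). It was 16.7 to 22.4 CPM in the other 5 NASH-CH rats (median 17.65) and 182 CPM in rat 5, in which it rested on 14037 counts. No NASH rat and none of these 5 NASH-CH rats reached the lowest control rat, and rat 5 was above the highest control rat. The mean log2 CPM over the 38 genes, which gives each gene the same weight, was -0.0087 ± 0.54 (SD, n = 6) in control rats and -1.82 ± 0.27 (SD, n = 6) in NASH rats. In NASH-CH rats it was -0.83 ± 1.30 (SD, n = 6) with rat 5 and -1.36 ± 0.17 (SD, n = 5) without it.

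**Figure D1:**
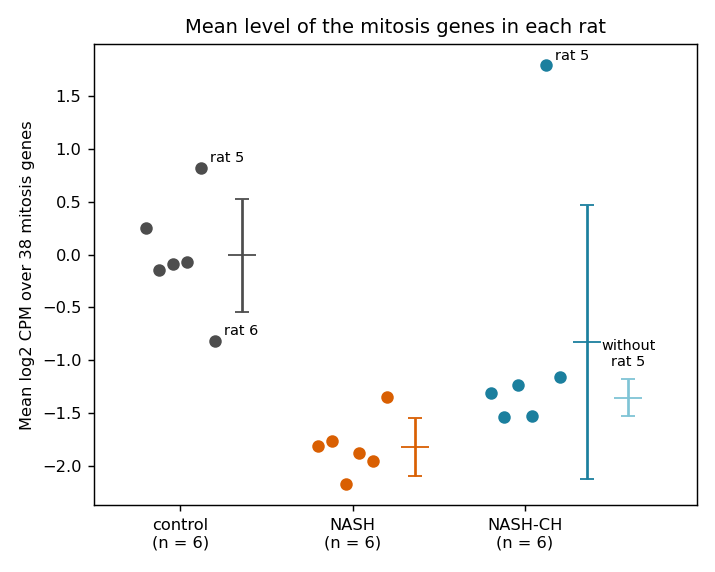
Mean log2 CPM over the 38 mitosis genes (vertical axis) for each rat (points) of the control, NASH and NASH-CH groups. Control rats lie between -0.82 and 0.82, NASH rats between -2.18 and -1.35 and 5 NASH-CH rats between -1.54 and -1.16, while NASH-CH rat 5 lies at 1.80.

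The genes moved together among the control rats too. Control rat 5, with a mean log2 CPM of 0.82, had the highest control level for 24 of the 31 tested genes, and control rat 6, with -0.82, had the lowest for 23, where a given control rat was highest, or lowest, for 19.5% of all genes tested. Among NASH rats the highest rat differed between genes, such as NASH rat 6 for Mki67 and NASH rat 2 for Prc1. NASH-CH rat 5 was set apart for its levels of these same genes, so the counts that follow describe that choice. They are no independent test of it. In NASH-CH rats, rat 5 exceeded the other 5 for each of the 38 genes (25.4% of all genes tested), and it was the highest of the 18 rats for 37 of the 38 (15% of all genes tested). The exception was Ccnf. Rat 5 stood 1.72 to 26.1 times above the median of the other 5 NASH-CH rats, with a median of 12.7 over the 38 genes, against a median of 0.998 over all genes tested. Against the control median it stood at 0.869 to 6.23 times, with a median of 3.90. Of the 31 tested genes 26 were over 4 times the median of the other NASH-CH rats in rat 5, which was so for 1.6% of all genes tested.

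**Figure D2:**
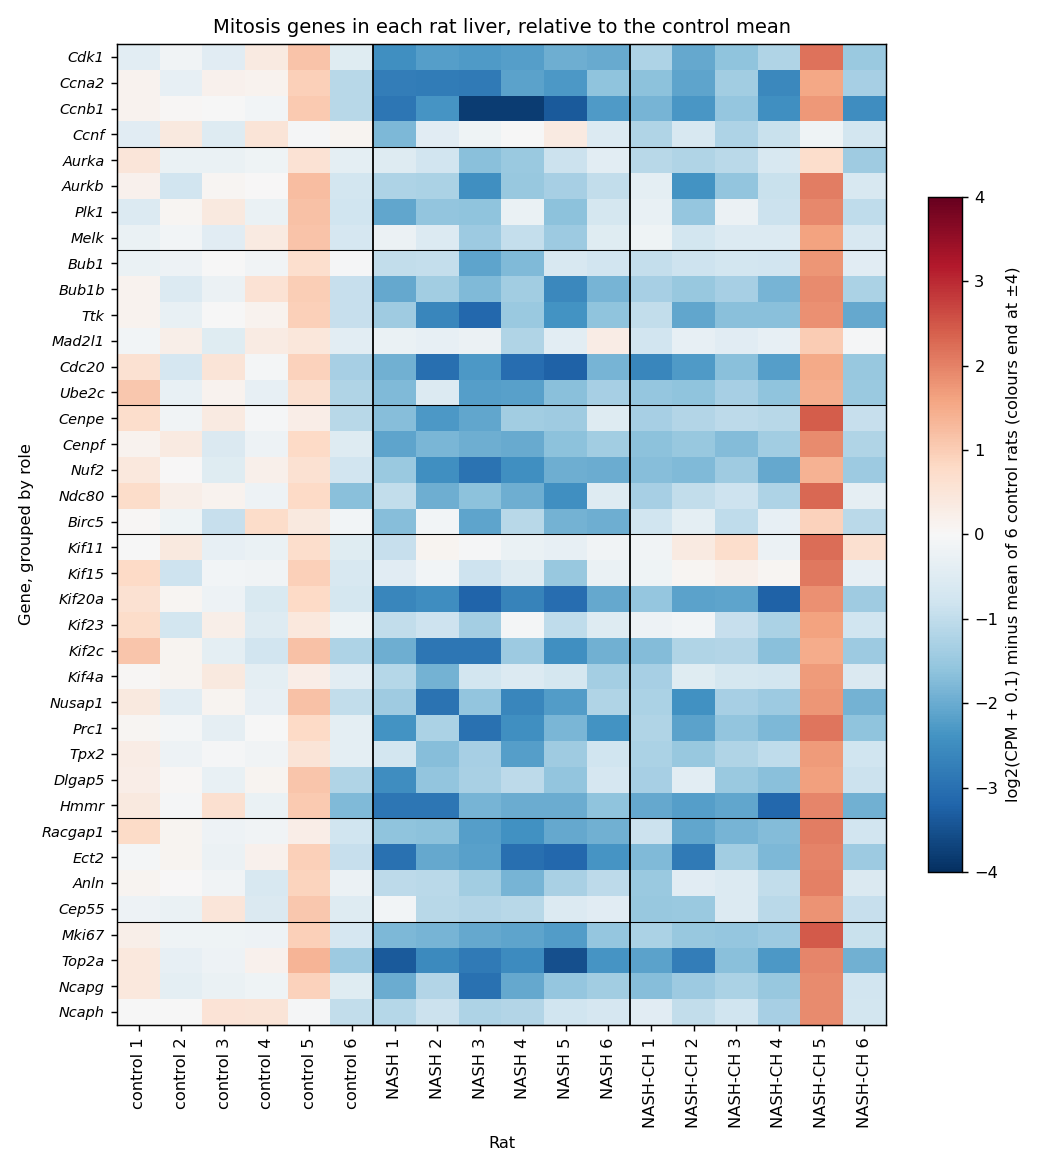
Each cell is log2(CPM + 0.1) of 1 gene (rows, grouped by role) in 1 rat (columns, control, NASH and NASH-CH from left to right), minus the mean of the 6 control rats, with colours ending at -4 and 4. Nearly the whole column of NASH-CH rat 5 is red, while the NASH columns and the other 5 NASH-CH columns are mostly blue.

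Every NASH rat was below every control rat for 21 of the 31 tested genes, which held for 1.39% of all 12904 genes tested, and for 23 of all 38. Because of rat 5, there was no gene of the 31 for which every NASH-CH rat was below every control rat (3.46% of all genes tested). The other 5 NASH-CH rats were all below every control rat for 21 of the 31 (4.34% of all genes tested) and for 22 of all 38. Their median lay below the control median for 36 of the 38 genes and above the NASH median for 33. The share of all genes with medians in this order was not computed, so these counts have no background. All of the other 5 NASH-CH rats were above every NASH rat for 1 gene of the 31, Mki67 (1.81% of all genes tested).

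Tested with limma-voom in 1 fit of all 18 rats, the same differences gave few calls. NASH against control gave 0 of 31 genes with a Benjamini-Hochberg adjusted p under 0.05, although 24 had an unadjusted p under 0.05, all 31 log2 fold changes were negative (median -2.09, against 0.0072 over all genes tested) and the smallest adjusted p was 0.0513. Over all genes tested, 1.54% were called lower. The edgeR quasi-likelihood test called 7 of the 31 lower and DESeq2 16, with 5 genes left without an adjusted p. NASH-CH against control gave 1 call, Ccnf, where 8.6% of all genes tested were called lower, and the median log2 fold change was -0.87. NASH-CH against NASH gave 0 calls at a median of 1.36, with 3 genes at an unadjusted p under 0.05 (1.81% of all genes tested were called higher). For that comparison edgeR called 1 gene higher and DESeq2 15. The shares of all genes tested, here and below, are those of limma-voom. Counts of edgeR and DESeq2 are given without a share of their own, so they cannot be set against a background.

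The fit estimates 1 spread per gene from the 3 groups, and rat 5 enters it. Without this rat, the median standard error of the log2 fold change dropped from 0.85 to 0.41 for NASH against control, a comparison of which rat 5 is no part, while the median fold change stayed at -2.09. In the fit of 17 rats, 23 of the 30 genes that passed the filter were lower in NASH than in control rats (2.77% of all genes tested were called lower) and 24 of 30 were lower in NASH-CH than in control rats (8.59%). For all 38 genes without the filter, the counts were 25 (1.29%) and 30 (17%). Without the filter, 3522 of all genes were called lower and 1443 higher in NASH-CH than in control rats, against 1112 and 1070 with it. Unfiltered calls of genes lower in NASH-CH rats, here and below, carry this limit. Both comparisons share the 6 control rats. Rat 5 was set apart because of its levels of these same genes, so the calls and adjusted p-values without it depend on that choice. Those of NASH-CH rats, here and below, describe the other 5 rats and are no independent test of the whole group. No gene was called higher in either comparison. NASH-CH against NASH gave 0 calls by limma-voom, edgeR and DESeq2, with 4 of 30 genes at an unadjusted p under 0.05 and a median log2 fold change of 0.61 (1.61% of all genes tested were called higher). Unless the fit is named, the fold changes and adjusted p-values that follow come from limma-voom on these 17 rats, and "NASH-CH" in them means the other 5 NASH-CH rats.

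**Figure D3:**
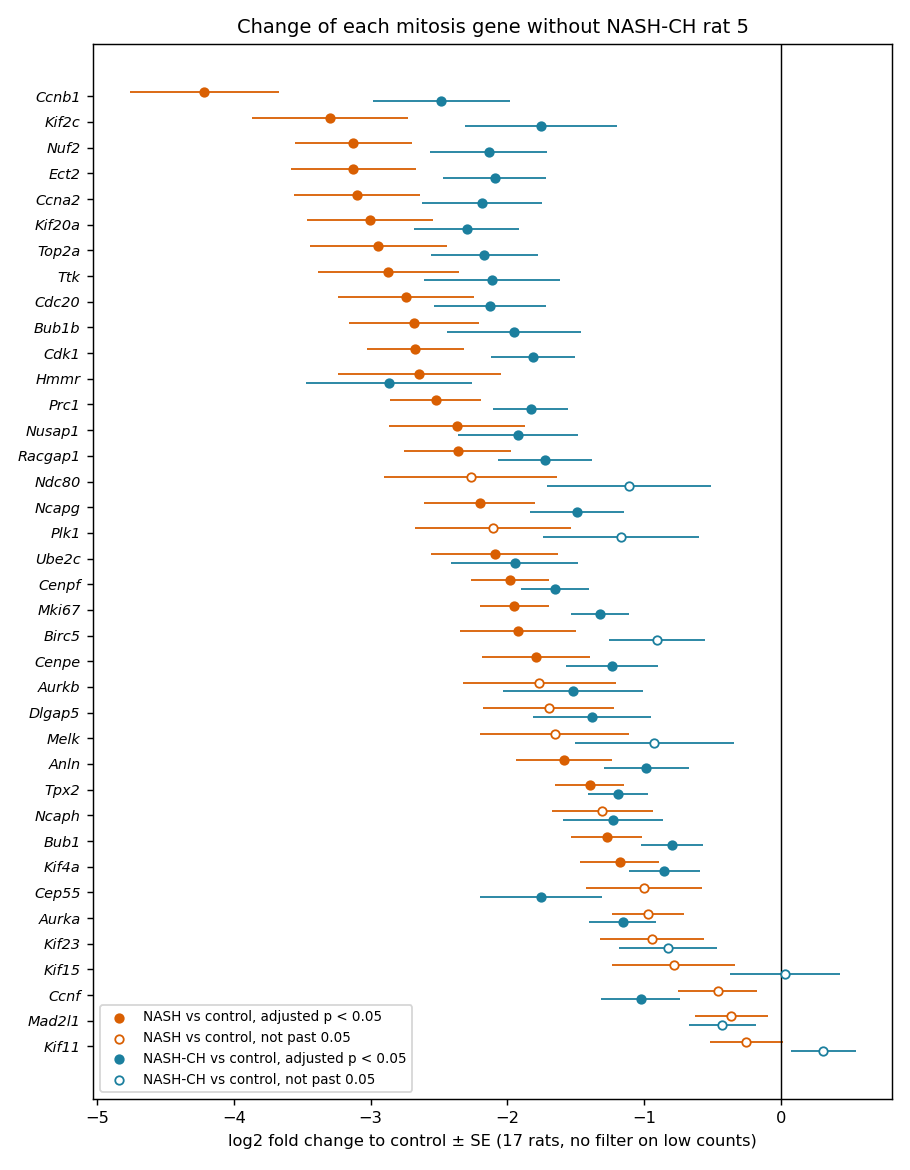
Log2 fold change to control (horizontal axis) with its standard error (bars) for each of the 38 genes in both disease groups, from the fit of 17 rats without NASH-CH rat 5 and without a filter on low counts; filled points have an adjusted p under 0.05. All 38 NASH points lie below 0, and of the NASH-CH points only Kif11 and Kif15 do not.

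Of the 4 genes for CDK1 and cyclins in the files, 3 were lower in NASH and all 4 in NASH-CH rats. Cdk1 (ENSRNOG00000000632), the kinase that drives entry into mitosis, ran from 0.645 to 2.18 CPM in control rats (median 0.767), 0.0891 to 0.171 CPM in NASH rats (median 0.127) and 0.152 to 0.349 CPM in the other 5 NASH-CH rats (median 0.276), with 4.60 CPM in rat 5. The NASH and the other NASH-CH rats were all below the lowest control rat, and rat 5 was above the highest. Cdk1 was 6.33-fold lower in NASH rats (log2 fold change -2.66, SE 0.38, adjusted p = 0.0015) and 3.53-fold lower in NASH-CH rats (log2 fold change -1.82, SE 0.30, adjusted p = 0.000614). With rat 5 in the fit, these adjusted p-values were 0.107 and 0.325. Ccnb1 (ENSRNOG00000058539), cyclin B1, the partner that brings Cdk1 to full activity at mitotic entry, ran from 0.538 to 2.78 CPM in control rats (median 1.31), 0 to 0.190 CPM in NASH rats (median 0.0617) and 0.147 to 0.378 CPM in the other 5 NASH-CH rats (median 0.174), with 4.54 CPM in rat 5. It had 0 to 6 counts in each NASH rat, and the groups without rat 5 did not overlap the controls. Ccnb1 was 18.3-fold lower in NASH rats (log2 fold change -4.19, SE 0.64, adjusted p = 0.00186) and 5.60-fold lower in NASH-CH rats (log2 fold change -2.49, SE 0.44, adjusted p = 0.00106), and rat 5 had 26.1 times the median of the other NASH-CH rats. Ccna2, cyclin A2, which acts in S phase and G2, ran from 0.359 to 1.83 CPM in control rats (median 0.995), 0.0386 to 0.221 CPM in NASH rats (median 0.0736) and 0.0655 to 0.294 CPM in the other 5 NASH-CH rats (median 0.220), with 2.81 CPM in rat 5. All rats of both disease groups except rat 5 were again below the lowest control rat. Ccna2 was 8.32-fold lower in NASH rats (log2 fold change -3.06, SE 0.53, adjusted p = 0.00447) and 4.56-fold lower in NASH-CH rats (log2 fold change -2.19, SE 0.43, adjusted p = 0.0022). Ccnf, an F-box protein that targets proteins for degradation in G2, ran from 2.02 to 4.17 CPM in control rats (median 2.97), 0.758 to 3.73 CPM in NASH rats (median 2.32) and 1.19 to 1.85 CPM in the other 5 NASH-CH rats (median 1.51), with 2.58 CPM in rat 5. Here NASH and control rats overlapped, and rat 5 stayed below the control median. Between NASH and control rats Ccnf differed by -0.47 (SE 0.29, adjusted p = 0.333) on the log2 scale, and it was 2.05-fold lower in NASH-CH rats (log2 fold change -1.04, SE 0.29, adjusted p = 0.02), and it was the 1 gene called with all 18 rats (log2 fold change -0.87, SE 0.28, adjusted p = 0.0437).

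**Figure D4:**
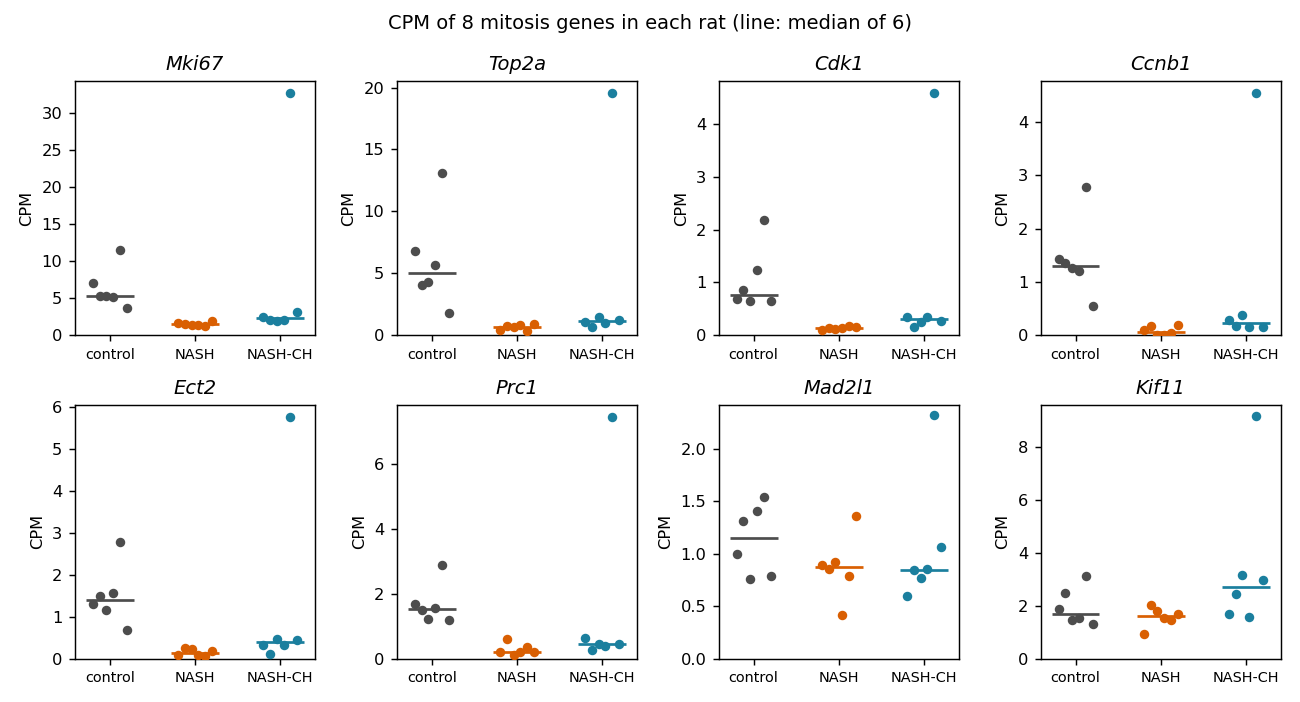
CPM (vertical axes, each from 0) of 8 mitosis genes in each rat (points), with the median of each group of 6 as a line. For Cdk1, Ccnb1, Mki67 and Top2a the NASH rats and 5 of the NASH-CH rats lie below the lowest control rat and NASH-CH rat 5 lies above the highest, at 4.60, 4.54, 32.7 and 19.6 CPM.

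Of the 4 mitotic kinases 2 passed the filter, and Aurka was lower in both groups. This kinase, which matures centrosomes and spindle poles, ran from 1.18 to 2.43 CPM in control rats (median 1.36), 0.424 to 1.17 CPM in NASH rats (median 0.861) and 0.534 to 0.983 CPM in the other 5 NASH-CH rats (median 0.680), with 2.65 CPM in rat 5. The highest NASH rat lay just under the lowest control rat. Aurka was 1.96-fold lower in NASH rats (log2 fold change -0.97, SE 0.26, adjusted p = 0.0401) and 2.24-fold lower in NASH-CH rats (log2 fold change -1.16, SE 0.25, adjusted p = 0.00383), and without the filter on low counts the first adjusted p was 0.057. Aurkb, the kinase of the chromosomal passenger complex that corrects kinetochore attachments, ran from 0.347 to 1.69 CPM in control rats (median 0.684), 0.0386 to 0.284 CPM in NASH rats (median 0.210) and 0.0435 to 0.480 CPM in the other 5 NASH-CH rats (median 0.306), with 3.06 CPM in rat 5. NASH rats did not overlap the controls, and NASH-CH rats did. Aurkb gave log2 fold changes of -1.77 (SE 0.58, adjusted p = 0.0758) in NASH and -1.52 (SE 0.51, adjusted p = 0.0506) in NASH-CH rats, neither past the threshold. Plk1, which acts from centrosome maturation to cytokinesis, and Melk, a kinase of dividing cells, did not pass the filter. Plk1 ran from 0.143 to 0.843 CPM in control rats (median 0.297), 0 to 0.252 CPM in NASH rats (median 0.0407) and 0.0435 to 0.258 CPM in the other 5 NASH-CH rats (median 0.131), with 1.51 CPM in rat 5, with log2 fold changes of -2.10 (SE 0.57, adjusted p = 0.056) and -1.17 (SE 0.57, adjusted p = 0.147). Melk ran from 0.0717 to 0.496 CPM in control rats (median 0.139), 0 to 0.134 CPM in NASH rats (median 0.0638) and 0.0653 to 0.140 CPM in the other 5 NASH-CH rats (median 0.0860), with 0.727 CPM in rat 5, with log2 fold changes of -1.65 (SE 0.55, adjusted p = 0.111) and -0.92 (SE 0.58, adjusted p = 0.265). Both genes overlapped between groups and had at most 6 counts in any NASH rat.

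In the spindle checkpoint, Bub1, Bub1b and Ttk were lower in both groups and Mad2l1 was not called. Bub1, a checkpoint kinase of the kinetochore, ran from 1.37 to 2.73 CPM in control rats (median 1.55), 0.309 to 1.03 CPM in NASH rats (median 0.808) and 0.821 to 1.18 CPM in the other 5 NASH-CH rats (median 0.939), with 5.93 CPM in rat 5. No rat of the disease groups other than rat 5 reached the lowest control rat. Bub1 was 2.42-fold lower in NASH rats (log2 fold change -1.28, SE 0.26, adjusted p = 0.0103) and 1.75-fold lower in NASH-CH rats (log2 fold change -0.81, SE 0.22, adjusted p = 0.019). Bub1b encodes BUBR1, which binds and inhibits Cdc20, and ran from 0.215 to 1.09 CPM in control rats (median 0.482), 0 to 0.129 CPM in NASH rats (median 0.0702) and 0.0655 to 0.147 CPM in the other 5 NASH-CH rats (median 0.138), with 2.13 CPM in rat 5. It did not pass the filter, and without the filter it was 6.42-fold lower in NASH rats (log2 fold change -2.68, SE 0.48, adjusted p = 0.00609) and 3.87-fold lower in NASH-CH rats (log2 fold change -1.95, SE 0.49, adjusted p = 0.00837). Ttk, the MPS1 kinase that starts the checkpoint signal, ran from 0.359 to 1.59 CPM in control rats (median 0.812), 0 to 0.223 CPM in NASH rats (median 0.129) and 0.109 to 0.340 CPM in the other 5 NASH-CH rats (median 0.172), with 3.03 CPM in rat 5. The groups without rat 5 lay below all controls. Ttk was 7.33-fold lower in NASH rats (log2 fold change -2.87, SE 0.55, adjusted p = 0.00758) and 4.34-fold lower in NASH-CH rats (log2 fold change -2.12, SE 0.45, adjusted p = 0.00409). Mad2l1, the checkpoint protein that captures Cdc20, ran from 0.757 to 1.54 CPM in control rats (median 1.15), 0.419 to 1.36 CPM in NASH rats (median 0.874) and 0.600 to 1.07 CPM in the other 5 NASH-CH rats (median 0.849), with 2.33 CPM in rat 5. Its groups overlapped, with log2 fold changes of -0.37 (SE 0.26, adjusted p = 0.413) in NASH and -0.44 (SE 0.24, adjusted p = 0.231) in NASH-CH rats. Rat 5 was nevertheless the highest rat for Mad2l1.

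Cdc20 and Ube2c act after the checkpoint, in the destruction of cyclin B. Cdc20, the activator of the anaphase-promoting complex, ran from 0.932 to 4.81 CPM in control rats (median 2.97), 0.171 to 0.600 CPM in NASH rats (median 0.319) and 0.320 to 0.791 CPM in the other 5 NASH-CH rats (median 0.459), with 7.23 CPM in rat 5. Neither disease group without rat 5 reached the controls. Cdc20 was 6.69-fold lower in NASH rats (log2 fold change -2.74, SE 0.52, adjusted p = 0.00708) and 4.37-fold lower in NASH-CH rats (log2 fold change -2.13, SE 0.42, adjusted p = 0.0022). With all 18 rats the adjusted p-values for Cdc20 were 0.0931 and 0.144. Ube2c, the ubiquitin-conjugating enzyme of that complex, ran from 0.179 to 1.25 CPM in control rats (median 0.515), 0.0386 to 0.343 CPM in NASH rats (median 0.0959) and 0.109 to 0.155 CPM in the other 5 NASH-CH rats (median 0.120), with 1.66 CPM in rat 5. It passed the filter only with rat 5, and without the filter it was 4.27-fold lower in NASH rats (log2 fold change -2.09, SE 0.46, adjusted p = 0.0222) and 3.85-fold lower in NASH-CH rats (log2 fold change -1.94, SE 0.46, adjusted p = 0.0062).

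Among the kinetochore genes, 4 of 5 were lower in NASH and 3 of 5 in NASH-CH rats. Cenpf, a large kinetochore protein of G2 and M phase, ran from 0.959 to 2.63 CPM in control rats (median 1.45), 0.267 to 0.506 CPM in NASH rats (median 0.326) and 0.378 to 0.589 CPM in the other 5 NASH-CH rats (median 0.457), with 5.75 CPM in rat 5. The 2 disease groups without rat 5 were clear of the controls. Cenpf was 3.95-fold lower in NASH rats (log2 fold change -1.98, SE 0.29, adjusted p = 0.00154) and 3.16-fold lower in NASH-CH rats (log2 fold change -1.66, SE 0.24, adjusted p = 0.000182). Cenpe, a kinetochore motor, ran from 0.323 to 1.37 CPM in control rats (median 0.888), 0.0857 to 0.537 CPM in NASH rats (median 0.209) and 0.260 to 0.387 CPM in the other 5 NASH-CH rats (median 0.328), with 4.83 CPM in rat 5. NASH and NASH-CH rats overlapped the controls, and Cenpe was 3.45-fold lower in NASH rats (log2 fold change -1.79, SE 0.40, adjusted p = 0.0171) and 2.36-fold lower in NASH-CH rats (log2 fold change -1.24, SE 0.34, adjusted p = 0.0183). Nuf2 and Ndc80 are subunits of the same microtubule-binding complex, and they differed in their calls. Nuf2 ran from 0.359 to 1.09 CPM in control rats (median 0.740), 0 to 0.178 CPM in NASH rats (median 0.0688) and 0.0873 to 0.189 CPM in the other 5 NASH-CH rats (median 0.140), with 1.95 CPM in rat 5, and was 8.70-fold lower in NASH rats (log2 fold change -3.12, SE 0.47, adjusted p = 0.00175) and 4.41-fold lower in NASH-CH rats (log2 fold change -2.14, SE 0.37, adjusted p = 0.000863). Ndc80 ran from 0.0717 to 0.843 CPM in control rats (median 0.522), 0 to 0.284 CPM in NASH rats (median 0.0600) and 0.120 to 0.331 CPM in the other 5 NASH-CH rats (median 0.174), with 2.58 CPM in rat 5. A single control rat at 0.0717 CPM, or 2 counts, overlapped the disease groups, and Ndc80 gave log2 fold changes of -2.26 (SE 0.70, adjusted p = 0.0643) and -1.10 (SE 0.56, adjusted p = 0.187). Birc5, survivin, the passenger complex subunit, ran from 0.303 to 1.16 CPM in control rats (median 0.648), 0.0771 to 0.600 CPM in NASH rats (median 0.118) and 0.258 to 0.502 CPM in the other 5 NASH-CH rats (median 0.340), with 1.34 CPM in rat 5. It was 3.88-fold lower in NASH rats (log2 fold change -1.96, SE 0.43, adjusted p = 0.0159), whereas in NASH-CH rats its log2 fold change was -0.92 (SE 0.34, adjusted p = 0.0759), and rat 5 was 3.93 times the median of the other NASH-CH rats.

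Of the 11 spindle genes 9 passed the filter, of which 6 were lower in NASH and 7 in NASH-CH rats. Kif20a, a motor of the central spindle, ran from 1.11 to 3.37 CPM in control rats (median 1.81), 0.116 to 0.379 CPM in NASH rats (median 0.216) and 0.109 to 0.644 CPM in the other 5 NASH-CH rats (median 0.361), with 6.97 CPM in rat 5. Kif20a was 8.03-fold lower in NASH rats (log2 fold change -3.01, SE 0.48, adjusted p = 0.00259) and 4.94-fold lower in NASH-CH rats (log2 fold change -2.31, SE 0.39, adjusted p = 0.000608), with no overlap with the controls outside rat 5. Prc1, which bundles the microtubules of the central spindle, ran from 1.18 to 2.88 CPM in control rats (median 1.54), 0.116 to 0.600 CPM in NASH rats (median 0.222) and 0.283 to 0.640 CPM in the other 5 NASH-CH rats (median 0.460), with 7.44 CPM in rat 5. It was 5.77-fold lower in NASH rats (log2 fold change -2.53, SE 0.34, adjusted p = 0.000877) and 3.57-fold lower in NASH-CH rats (log2 fold change -1.84, SE 0.27, adjusted p = 0.000184). With all 18 rats the adjusted p-values for Prc1 were 0.114 and 0.294. Tpx2, the activator of Aurora A on spindle microtubules, ran from 1.72 to 3.32 CPM in control rats (median 2.14), 0.419 to 1.34 CPM in NASH rats (median 0.818) and 0.740 to 1.29 CPM in the other 5 NASH-CH rats (median 0.946), with 7.74 CPM in rat 5. Its disease groups without rat 5 lay below all controls, and Tpx2 was 2.64-fold lower in NASH rats (log2 fold change -1.40, SE 0.25, adjusted p = 0.00528) and 2.30-fold lower in NASH-CH rats (log2 fold change -1.20, SE 0.22, adjusted p = 0.00134). Nusap1, which cross-links spindle microtubules, ran from 0.466 to 2.43 CPM in control rats (median 0.948), 0.0428 to 0.379 CPM in NASH rats (median 0.203) and 0.109 to 0.360 CPM in the other 5 NASH-CH rats (median 0.306), with 3.69 CPM in rat 5, and was 5.12-fold lower in NASH rats (log2 fold change -2.36, SE 0.51, adjusted p = 0.0152) and 3.80-fold lower in NASH-CH rats (log2 fold change -1.93, SE 0.43, adjusted p = 0.0061). Hmmr, a spindle-pole protein, ran from 0.215 to 2.08 CPM in control rats (median 1.12), 0.0428 to 0.253 CPM in NASH rats (median 0.170) and 0.0218 to 0.184 CPM in the other 5 NASH-CH rats (median 0.155), with 4.03 CPM in rat 5. NASH rats overlapped the lowest control, the other NASH-CH rats did not, and Hmmr was 6.02-fold lower in NASH rats (log2 fold change -2.59, SE 0.65, adjusted p = 0.0283) and 7.30-fold lower in NASH-CH rats (log2 fold change -2.87, SE 0.62, adjusted p = 0.00452). Rat 5 had 26.0 times the median of the other NASH-CH rats for Hmmr.

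Kif4a, a chromosome-bound motor, ran from 0.645 to 1.21 CPM in control rats (median 0.949), 0.171 to 0.587 CPM in NASH rats (median 0.429) and 0.300 to 0.609 CPM in the other 5 NASH-CH rats (median 0.516), with 3.14 CPM in rat 5, and was 2.27-fold lower in NASH rats (log2 fold change -1.18, SE 0.29, adjusted p = 0.0246) and 1.81-fold lower in NASH-CH rats (log2 fold change -0.86, SE 0.25, adjusted p = 0.0276). Kif2c, which depolymerizes microtubules at kinetochores, ran from 0.215 to 1.54 CPM in control rats (median 0.574), 0 to 0.168 CPM in NASH rats (median 0.0617) and 0.120 to 0.224 CPM in the other 5 NASH-CH rats (median 0.166), with 1.94 CPM in rat 5. It did not pass the filter, and without the filter it was 9.84-fold lower in NASH rats (log2 fold change -3.30, SE 0.57, adjusted p = 0.00533) and 3.37-fold lower in NASH-CH rats (log2 fold change -1.75, SE 0.56, adjusted p = 0.0293). Dlgap5, which stabilizes kinetochore fibres, ran from 0.251 to 1.64 CPM in control rats (median 0.759), 0.0446 to 0.411 CPM in NASH rats (median 0.201) and 0.153 to 0.501 CPM in the other 5 NASH-CH rats (median 0.220), with 2.44 CPM in rat 5. It differed by -1.69 (SE 0.49, adjusted p = 0.0515) on the log2 scale between NASH and control rats and was 2.61-fold lower in NASH-CH rats (log2 fold change -1.39, SE 0.43, adjusted p = 0.0347). The remaining 3 motors were not called in any comparison. Kif11 and Kif15 both push spindle poles apart, and Kif23 is the motor of the centralspindlin complex. Kif11 ran from 1.33 to 3.12 CPM in control rats (median 1.70), 0.936 to 2.01 CPM in NASH rats (median 1.61) and 1.59 to 3.15 CPM in the other 5 NASH-CH rats (median 2.44), with 9.18 CPM in rat 5. All groups overlapped, with log2 fold changes of -0.26 (SE 0.27, adjusted p = 0.598) in NASH and 0.30 (SE 0.24, adjusted p = 0.414) in NASH-CH rats. Kif15 ran from 0.116 to 0.645 CPM in control rats (median 0.250), 0.0342 to 0.257 CPM in NASH rats (median 0.173) and 0.203 to 0.344 CPM in the other 5 NASH-CH rats (median 0.305), with 1.56 CPM in rat 5, with log2 fold changes of -0.78 (SE 0.45, adjusted p = 0.376) and 0.03 (SE 0.40, adjusted p = 0.97) without the filter. Kif23 ran from 0.231 to 0.810 CPM in control rats (median 0.475), 0.116 to 0.419 CPM in NASH rats (median 0.196) and 0.131 to 0.413 CPM in the other 5 NASH-CH rats (median 0.221), with 1.58 CPM in rat 5, with log2 fold changes of -0.94 (SE 0.39, adjusted p = 0.148) and -0.83 (SE 0.36, adjusted p = 0.121). Rat 5 was the highest of the 18 rats for these 3 motors as well.

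The 3 cytokinesis genes that passed the filter were lower in both groups. Racgap1, the GTPase-activating subunit of centralspindlin, ran from 0.466 to 1.56 CPM in control rats (median 0.875), 0.0839 to 0.223 CPM in NASH rats (median 0.147) and 0.131 to 0.478 CPM in the other 5 NASH-CH rats (median 0.197), with 3.97 CPM in rat 5. NASH rats were below every control rat, and 1 of the other NASH-CH rats overlapped the lowest control. Racgap1 was 5.19-fold lower in NASH rats (log2 fold change -2.38, SE 0.41, adjusted p = 0.00441) and 3.33-fold lower in NASH-CH rats (log2 fold change -1.73, SE 0.34, adjusted p = 0.00244). Ect2, the exchange factor that switches on RhoA at the cell equator, ran from 0.681 to 2.78 CPM in control rats (median 1.41), 0.0685 to 0.257 CPM in NASH rats (median 0.139) and 0.109 to 0.464 CPM in the other 5 NASH-CH rats (median 0.340), with 5.78 CPM in rat 5. There was no overlap outside rat 5. Ect2 was 8.75-fold lower in NASH rats (log2 fold change -3.13, SE 0.49, adjusted p = 0.00211) and 4.28-fold lower in NASH-CH rats (log2 fold change -2.10, SE 0.37, adjusted p = 0.00106). Anln, anillin, a scaffold of the contractile ring, ran from 0.331 to 1.14 CPM in control rats (median 0.541), 0.0839 to 0.223 CPM in NASH rats (median 0.193) and 0.140 to 0.392 CPM in the other 5 NASH-CH rats (median 0.350), with 2.60 CPM in rat 5. It was 3.01-fold lower in NASH rats (log2 fold change -1.59, SE 0.36, adjusted p = 0.018) and 1.99-fold lower in NASH-CH rats (log2 fold change -0.99, SE 0.31, adjusted p = 0.034), with NASH-CH rats overlapping the controls. Cep55, which acts in the final abscission, ran from 0.165 to 0.744 CPM in control rats (median 0.240), 0.0771 to 0.267 CPM in NASH rats (median 0.128) and 0.0400 to 0.172 CPM in the other 5 NASH-CH rats (median 0.0873), with 1.30 CPM in rat 5. It did not pass the filter, and without the filter its log2 fold change was -1.0 (SE 0.42, adjusted p = 0.216) in NASH rats and it was 3.37-fold lower in NASH-CH rats (log2 fold change -1.75, SE 0.45, adjusted p = 0.00908).

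The 3 chromosome genes that passed the filter were lower in both groups. Mki67 (ENSRNOG00000028137), which encodes Ki-67, a coat protein of mitotic chromosomes used as a marker of cycling cells, ran from 3.66 to 11.5 CPM in control rats (median 5.25), 1.16 to 1.93 CPM in NASH rats (median 1.45) and 1.96 to 3.13 CPM in the other 5 NASH-CH rats (median 2.10), with 32.7 CPM in rat 5. The 3 groups without rat 5 did not overlap, with the other NASH-CH rats between NASH and control. Mki67 was 3.87-fold lower in NASH rats (log2 fold change -1.95, SE 0.26, adjusted p = 0.000877) and 2.52-fold lower in NASH-CH rats (log2 fold change -1.33, SE 0.22, adjusted p = 0.000485). Its log2 fold change of NASH-CH against NASH was 0.62 (SE 0.27, adjusted p = 0.258). Top2a (ENSRNOG00000053047), the topoisomerase that untangles sister chromatids, ran from 1.76 to 13.1 CPM in control rats (median 5.00), 0.342 to 0.885 CPM in NASH rats (median 0.694) and 0.653 to 1.50 CPM in the other 5 NASH-CH rats (median 1.06), with 19.6 CPM in rat 5. The groups without rat 5 lay below every control rat. Top2a was 7.71-fold lower in NASH rats (log2 fold change -2.95, SE 0.52, adjusted p = 0.00468) and 4.51-fold lower in NASH-CH rats (log2 fold change -2.17, SE 0.40, adjusted p = 0.00139). Ncapg and Ncaph are subunits of condensin I, which compacts chromosomes. Ncapg ran from 0.681 to 1.98 CPM in control rats (median 0.838), 0.0386 to 0.386 CPM in NASH rats (median 0.226) and 0.240 to 0.552 CPM in the other 5 NASH-CH rats (median 0.305), with 3.99 CPM in rat 5, and was 4.61-fold lower in NASH rats (log2 fold change -2.20, SE 0.41, adjusted p = 0.00708) and 2.83-fold lower in NASH-CH rats (log2 fold change -1.50, SE 0.34, adjusted p = 0.00626). Ncaph ran from 0.108 to 0.505 CPM in control rats (median 0.310), 0.0771 to 0.158 CPM in NASH rats (median 0.109) and 0.0655 to 0.200 CPM in the other 5 NASH-CH rats (median 0.138), with 1.43 CPM in rat 5. It did not pass the filter, and without the filter its log2 fold change was -1.30 (SE 0.37, adjusted p = 0.0646) in NASH rats and it was 2.34-fold lower in NASH-CH rats (log2 fold change -1.23, SE 0.37, adjusted p = 0.0217).

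Other genes of the cell cycle were read beside these. Of 66 further mitosis genes listed, 64 were in the files and 47 were tested without rat 5, of which 12 were lower in NASH (2.77% of all genes tested) and 10 in NASH-CH rats (8.59% of all genes tested), at medians of -0.52 and -0.39 against 0.0145 and 0.0086 over all genes tested. With all 18 rats, 1 and 2 of 49 were lower, where 1.54% and 8.6% of all genes tested were, and rat 5 was the highest of the 18 for 35 of the 49 (15% of all genes tested). Nek2, a centrosome kinase, ran from 0.251 to 0.992 CPM in control, 0 to 0.0891 CPM in NASH and 0.0218 to 0.206 CPM in the other NASH-CH rats, with 1.91 CPM in rat 5. Its log2 fold changes were -3.46 (SE 0.55, adjusted p = 0.00249) and -2.65 (SE 0.48, adjusted p = 0.00118). Cdca3, a trigger of mitotic entry, gave -3.74 (SE 0.59, adjusted p = 0.00223) and -2.12 (SE 0.45, adjusted p = 0.00372), and Ckap2, a spindle protein, gave -2.27 (SE 0.47, adjusted p = 0.0114) and -2.57 (SE 0.44, adjusted p = 0.000796). Cks2, a subunit of CDK1 complexes, moved less, by -0.83 (SE 0.16, adjusted p = 0.00854) and -0.91 (SE 0.15, adjusted p = 0.000571). Kifc1, a minus-end motor, gave -1.60 (SE 0.36, adjusted p = 0.0171) and -1.50 (SE 0.33, adjusted p = 0.00472), and Sgo2, a protector of centromeric cohesion, gave -2.70 in NASH-CH rats (SE 0.57, adjusted p = 0.00407). Of the 15 genes of the anaphase-promoting complex list, 0 were called in NASH rats by limma-voom, edgeR or DESeq2 (3 had an unadjusted p under 0.05). In NASH-CH rats 2 were lower, where 8.59% of all genes tested were, so this count was near the background. They were Anapc11 (log2 fold change -0.45, SE 0.07, adjusted p = 0.000574) and Ube2s (-0.30, SE 0.09, adjusted p = 0.0385).

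The transcription factors of this programme were mostly not called. Of 21 listed, 19 were tested, and NASH against control gave 0 calls by limma-voom without rat 5 (5 at an unadjusted p under 0.05), 1 by edgeR and 2 by DESeq2. NASH-CH against control gave 1 call, Lin37, a DREAM subunit (log2 fold change -0.58, SE 0.16, adjusted p = 0.0223), and 1 of 19 is no more than the 8.59% of all genes tested that were called lower. Foxm1 ran from 0.617 to 0.992 CPM in control, 0.171 to 0.624 CPM in NASH and 0.457 to 0.865 CPM in the other NASH-CH rats, with 1.83 CPM in rat 5, and its log2 fold changes were -0.62 (SE 0.29, adjusted p = 0.200) and -0.31 (SE 0.26, adjusted p = 0.431). Mybl2 went the other way: it ran from 0 to 0.397 CPM in control, 0.171 to 1.26 CPM in NASH and 0.0655 to 0.24 CPM in the other NASH-CH rats, with 0.429 CPM in rat 5. Its log2 fold change was 2.00 in NASH against control (SE 0.60, adjusted p = 0.0578), which did not pass, and -2.16 in NASH-CH against NASH (SE 0.55, adjusted p = 0.0335). E2f1 had log2 fold changes of -0.59 (SE 0.28, adjusted p = 0.201) and -0.62 (SE 0.26, adjusted p = 0.113). E2f8, an E2F repressor of S and G2 phase, did not pass the filter, and lay at 0 to 0.171 CPM in every control and NASH rat and at 0.623 CPM in rat 5.

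Among 13 tested inhibitors of the cycle, 2 were higher and 1 was lower in each comparison with the control rats. Of all genes tested, 2.8% were called higher in NASH and 8.26% in NASH-CH rats, and 2.77% and 8.59% were called lower. Ccng1, a p53 target, was higher in NASH than in control rats, at 28.4 to 74.7 CPM against 20.3 to 26.8 CPM (log2 fold change 1.13, SE 0.20, adjusted p = 0.0053), and rat 5 had 28.2 CPM. Gadd45b, a growth arrest gene, was higher in both groups (1.56, SE 0.44, adjusted p = 0.0472 in NASH, and 1.52, SE 0.46, adjusted p = 0.032 in NASH-CH rats), and Cdkn2c, the CDK4 and CDK6 inhibitor p18, was higher in NASH-CH rats (0.89, SE 0.26, adjusted p = 0.0272). Cdkn3, a phosphatase that is listed with the inhibitors and is itself expressed in dividing cells, was lower in both (-4.13, SE 0.55, adjusted p = 0.000911, and -2.73, SE 0.44, adjusted p = 0.000444). Cdkn1a, p21, ran from 9.395 to 55.8 CPM in control and 21.1 to 114 CPM in NASH rats, and its log2 fold change of 1.17 (SE 0.50, adjusted p = 0.165) did not pass. Of 21 tested genes of G1/S and replication, 6 were lower in NASH (2.77% of all genes tested) and 4 in NASH-CH rats (8.59%), led by Rrm2, a ribonucleotide reductase subunit (-4.07, SE 0.76, adjusted p = 0.00688, and -2.81, SE 0.55, adjusted p = 0.00224), and Mcm3, of the replicative helicase (-1.41, SE 0.29, adjusted p = 0.0103, and -0.87, SE 0.24, adjusted p = 0.0202). Mcm6 (-1.13, SE 0.30, adjusted p = 0.0376) and Tk1, thymidine kinase (-1.12, SE 0.29, adjusted p = 0.0347), were lower in NASH rats and Pcna, the replication clamp, in NASH-CH rats (-0.49, SE 0.14, adjusted p = 0.0256). Ccnd1, cyclin D1, which links growth signals to the cycle, ran from 14.3 to 46.2 CPM in control, 5.84 to 11.8 CPM in NASH and 15.0 to 43.3 CPM in the other NASH-CH rats, with 93.1 CPM in rat 5. It was lower in NASH than in control rats (-1.37, SE 0.29, adjusted p = 0.0125) and higher in NASH-CH than in NASH rats both without rat 5 (1.39, SE 0.29, adjusted p = 0.0104) and with it (1.71, SE 0.38, adjusted p = 0.0119). Of 13 tested growth signal genes, 0 were called in NASH against control by limma-voom, and DESeq2 called 2 lower without rat 5. Without rat 5, limma-voom called 1 lower in NASH-CH rats, which is no more than the 8.59% of all genes tested. It was Igf1, a liver-made growth factor (-0.37, SE 0.13, adjusted p = 0.0497). With all 18 rats 2 were lower in NASH-CH rats (8.6% of all genes tested), among them Fgf21, a hepatic hormone of nutrient stress (-1.69, SE 0.55, adjusted p = 0.0418).

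Several cell type marker lists were at an extreme in rat 5. The sum of the 6 hepatocyte markers was lower in rat 5 than in any of the other 17 rats, at 48980 CPM against 67870 to 103200 CPM in the other NASH-CH rats. Albumin (Alb) made up most of it, at 41370 CPM. Of the 6, Alb, Ttr and Hnf4a were each at their lowest of the 18 rats in rat 5, whereas Cps1 and Ass1 were not, and Apoa1, at 1264 CPM, was above the other NASH-CH rats (742.5 to 1083 CPM). The sum of the 5 endothelial markers in the files was also the lowest, at 154 CPM against 205 to 262 CPM, with Kdr, Stab2 and Lyve1 each the lowest of the 18 rats, Cdh5 ranked 14 and Vwf ranked 3 of 18 from the top. In contrast, the 6 cholangiocyte markers reached 51.5 CPM in rat 5, against 6.53 to 17.5 CPM in the other NASH-CH rats, and each of the 6 was the highest of the 18 rats there. Epcam, a surface protein of bile duct cells, was at 23.4 CPM and Cftr, the chloride channel of bile duct cells, at 12.1 CPM in rat 5, against highest values of 10.2 and 1.42 CPM in the other rats. Neutrophil markers summed to 5.62 CPM (0.585 to 2.14 CPM in the other NASH-CH rats), T cell markers to 19.35 CPM (10.0 to 13.2 CPM) and mast cell markers to 15.6 CPM (6.905 to 9.695 CPM), each the highest of the 18 rats. Rat 5 was the highest for 4 of the 5 neutrophil genes (not Csf3r) and for 5 of the 6 T cell genes (not Cd3g). Cd4 made up 15.97 CPM of the T cell sum. Kit made up 6.61 CPM of the mast cell sum and ranked 7 of 18, whereas the other 3 mast cell genes were the highest. The sum of the 7 stellate cell and myofibroblast markers was the second highest, at 414 CPM, of which Col3a1 made up 319 CPM. Col1a1, Des and Pdgfrb were each the highest of the 18 rats, whereas Lrat, a marker of quiescent stellate cells, was the lowest, at 14.4 CPM against 19.9 to 47.5 CPM in the other 17 rats. B and plasma cell markers were the third highest, at 2.58 CPM. Rat 5 ranked 15 of 18 for macrophage markers (166 CPM), 8 for erythroid precursor markers (26.2 CPM) and 9 for fetal and tumour-associated hepatocyte markers (32.9 CPM). Within these sums single genes differed. Cd163 was the lowest of the 18 rats and Cd68 ranked 3. Gpc3 was the highest, at 5.84 CPM against at most 4.31 CPM in the other rats. Akr1b10 ranked 2, Gstp1 and Aldh3a1 4, Afp 13 and Igf2bp3 17. None of the markers found was at 0 in rat 5. The part of these cell types in the mitosis gene levels of rat 5 was not tested.

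Some lists also differed between the groups without rat 5. Summed hepatocyte markers were at 101000 to 145800 CPM in control rats, 65180 to 107000 CPM in NASH rats and 67870 to 103200 CPM in the other NASH-CH rats, and were abundant in every rat, as the label of liver tissue has it. Macrophage markers were at 232 to 442 CPM, 162 to 247 CPM and 136 to 221 CPM in these 3 groups. The medians were 113400, 83890 and 85040 CPM for hepatocyte markers and 264, 197 and 198 CPM for macrophage markers. Alb made up most of the hepatocyte sum, with medians of 100500, 73320 and 74690 CPM. Ttr, Apoa1 and Ass1 also had lower medians in both disease groups. Cps1 had higher ones (3687, 4112 and 4318 CPM), and Hnf4a lay at 403, 371 and 411 CPM. Clec4f was the largest macrophage marker (102, 81.9 and 78.4 CPM), and Cd68 alone had higher medians in both disease groups (10.25, 11.66 and 12.11 CPM). The part of these lists in the lower mitosis gene levels was not tested. Erythroid precursor markers ranged from 13.3 to 478 CPM among control rats alone and 15.5 to 197 CPM among NASH rats. Hbb, a globin gene, made up nearly all of the highest sums, at 474 CPM in control rat 5 and 193 CPM in NASH rat 3.

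**Figure D5:**
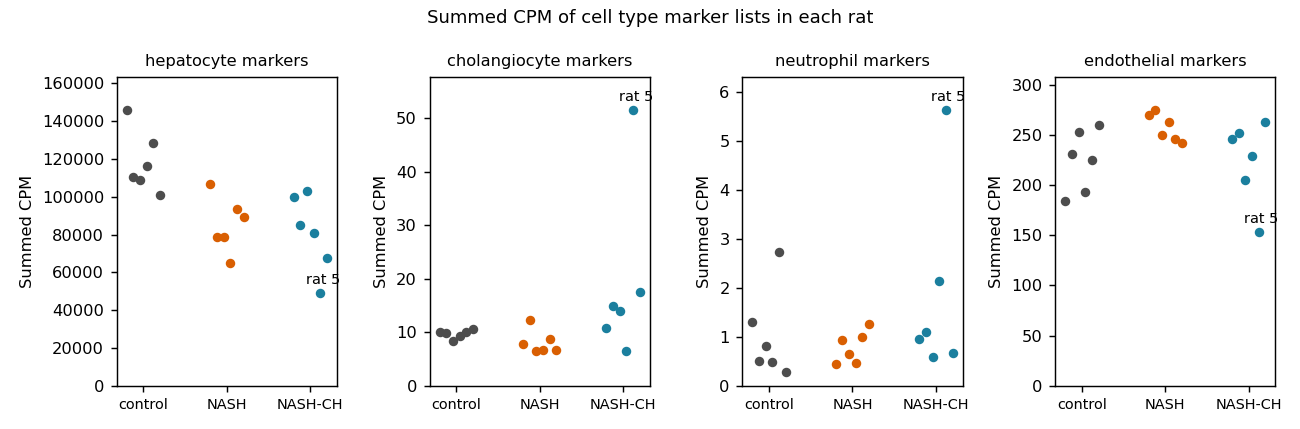
Summed CPM of cell type marker lists (vertical axes, each from 0) in each rat (points) of the 3 groups. NASH-CH rat 5 is the lowest of the 18 rats for hepatocyte markers (48980 CPM) and the highest for cholangiocyte markers (51.5 CPM) and neutrophil markers (5.62 CPM).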

How the data were processed

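Liver RNA of 18 rats was sequenced with 1 library per rat. The labels name the RNAqueous-Micro kit for extraction and the methods the miRNeasy kit. The authors trimmed adapters, aligned reads to Rnor_6.0 with STAR in 2-pass mode, used RSEM with Ensembl release 95, and deposited expected counts per gene, not normalized. Versions of these tools are not given in the sources used here. Expected counts were rounded, scaled by TMM (edgeR 4.0.16), filtered with filterByExpr and tested with limma 3.58.1 (voom) in R 4.3.3, in 1 fit of all groups, with Benjamini-Hochberg adjustment over all genes tested at 0.05; the fit was repeated without NASH-CH replicate 5. The mean log2 CPM used a prior count of 2. As alternatives, DESeq2 1.42.0 and the quasi-likelihood test of edgeR were run, with other scalings and filters, quality weights, a replicate block, thinned NASH-CH counts and leaving out each rat. The limma-voom, edgeR and DESeq2 fits of all 18 rats with filterByExpr were tested on simulated data. The fit without NASH-CH replicate 5 and the other settings were not. The genes, the lists beside them and the rat set apart were chosen with earlier results of these data known. The text gives every member, named list genes whatever their result (Foxm1, Mybl2, E2f1, E2f8, Cdkn1a, Ccng1, Ccnd1) and up to 6 called genes per list by adjusted p. The labels number the rats 1 to 6 in each group without saying that equal numbers were handled together, and 2, 1 and 0 of the 6 same-numbered pairs in the 3 comparisons had deviations that correlated above 0.1, so rats were not paired. Depth limits counting error only, and 6 rats per group limit the precision. Promoters came from RefSeq (GRCr8); coordinates in the build of the counts are not used here.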

Additional observations from a re-analysis of the deposited data

Results flagged for a closer look

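NASH-CH replicate 5 stood apart from the other rats of its group. The comparisons with and without it were chosen because it was already known as an outlier for these genes, so the gaps below describe that choice and are no independent test of it. Its mean log2 CPM over the 38 mitosis genes was 1.80, the next highest NASH-CH rat was at -1.16, and this gap was 0.885 of the range of the 6 rats, above Dixon's critical value of 0.625. Its summed level of 182 CPM, next to 22.4 CPM, left a gap of 0.966 of the range. Gene by gene, the gap passed that value for 37 of the 38 genes in the NASH-CH group, each time with rat 5 highest; Ccnf, at 0.525, was the exception. In the control group it passed for 4 genes (Bub1, Aurkb, Prc1 and Anln), each time with control rat 5 highest, and in the NASH group for 2 (Cenpe in NASH rat 6 and Birc5 in NASH rat 2). Chance alone passes this value in about 1 of 20 groups, and genes that move together are not independent.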

How the results depend on the processing

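The counts of called mitosis genes in this paragraph are given without the share of all genes called under the same setting. They therefore do not show whether the mitosis genes alone or all genes moved. Without NASH-CH replicate 5, no alternative other than leaving out a further rat moved a count of called genes by more than 1.5 times. With all 18 rats, the 0 genes lower in NASH than in control rats became 7 with edgeR, 16 with DESeq2, 2 with library size only, 4 without the filter, 17 of 22 with the 2 groups fitted alone, 26 with sample quality weights and 7 with thinned NASH-CH counts. The 1 gene lower in NASH-CH than in control rats became 0 with library size only and 20 with quality weights, and the 0 genes called in NASH-CH against NASH became 1 with edgeR and 15 with DESeq2. A replicate block gave 12 genes for NASH against control with all 18 rats, and without rat 5 it gave 24 and 19 genes for the 2 comparisons with control. Leaving out each rat gave 0 to 23, 0 to 24 and 0 to 0 genes for NASH against control, NASH-CH against control and NASH-CH against NASH, the highest 2 without rat 5, and, once rat 5 was left out, 17 to 26, 16 to 26 and 0 to 0. The difference in mean log2 CPM ranged from -1.98 to -1.66, -1.34 to -0.66 and 0.45 to 1.13 over these fits, and without rat 5 from -1.95 to -1.64, -1.50 to -1.17 and 0.38 to 0.54. With all 18 rats, log2 fold changes of NASH-CH against control, none of them called, turned positive with edgeR for Mki67 (0.25), Bub1 (0.077), Aurkb (0.033), Cenpe (0.35), Kif4a (0.065), Anln (0.21) and Ndc80 (0.26), with DESeq2 for Mki67 (0.23), Bub1 (0.066), Cenpe (0.31), Kif4a (0.051), Anln (0.18) and Ndc80 (0.20), with library size only for Mad2l1 (0.082), and without NASH-CH replicate 1 for Anln (-0.99 to 0.0054 over the rats left out) and Mad2l1 (-0.44 to 0.023). Library size only moved the median of all genes to 0.23 and 0.27 in the 2 comparisons with control. The cause of these changes was not tested. Levels of 3 counts or fewer in a rat are at the limit of the depth.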
